A study of Arabidopsis thaliana with 8 samples.

Results

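The GASA (gibberellic acid-stimulated Arabidopsis) genes encode small secreted peptides of the family first described from the tomato gene GAST1. The 9 loci described here were chosen by locus identifier from the 27628 loci of the deposited tables: GASA1 (AT1G75750), GASA2 (AT4G09610), GASA3 (AT4G09600), GASA4 (AT5G15230), GASA5 (AT3G02885), GASA6 (AT1G74670), GASA9 (AT1G22690), GASA10 (AT5G59845) and GASA14 (AT5G14920). The rule holds no threshold on a value, but the family was selected on read counts of these same libraries, whose fold changes between the genotypes were already known. The fold changes and p values below therefore place each locus among all loci and are no independent support for a response of the family. The annotation names 6 further loci with a gibberellin-regulated product, AT2G14900, AT2G39540, AT2G18420, AT2G30810, AT3G10185 and AT1G10588, so that the family has 15 loci in all, and these were examined beside the 9.

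RNA was sequenced from seedlings of Arabidopsis thaliana, ecotype Col-0, of 4 genotypes: agb1 (allele agb1-2), hy5, the double mutant cry1 cry2, and wild type (WT). CRY1 and CRY2 are photoreceptors for blue light, HY5 is a transcription factor of the bZIP class needed for seedling development in light, and AGB1 is the G protein beta subunit. For hy5, cry1 and cry2 no allele is given in the labels. Every genotype was kept at 4 °C for 3 days on medium with 1% sucrose, moved to white light for 12 h and then grown in blue light for 4.5 days. Each genotype has 2 libraries, described in the labels as biological replicates. How many seedlings each pool held, and whether they were grown apart, is not given. The p values therefore rest on the spread between these samples, pooled over the 4 genotypes and moderated by that of all tested loci.

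Gibberellins are growth hormones that bind GID1 receptors and bring about the breakdown of DELLA proteins, which otherwise hold back gene expression and cell elongation. Light lowers gibberellin action in seedlings, and dark-grown seedlings elongate their hypocotyls with gibberellin action high. GASA genes were named for their response to the hormone, and their peptides have been linked to germination, cell elongation, flowering and redox state. In Arabidopsis GASA4 promotes gibberellin responses and is redox active, GASA6 promotes germination through the expansin EXPA1, GASA14 promotes leaf expansion, and GASA5 delays flowering. GASA1 transcripts are known to respond in opposite ways to gibberellin and brassinosteroid, and GASA2 and GASA3 have been linked to seeds.

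What the members share is the end of the coding sequence. In each of the 15 loci the last coding exon holds 12 cysteine codons, and in 7 of the 9 members this exon is 182 bases long. Among those 7 the exons were 46.2% to 87.9% identical over 21 pairs, and those of GASA4 and GASA6 were 70.3% identical. GASA14 stands apart over the whole coding sequence, shared exon included. There 81 of its 275 codons, or 29.5%, code for proline, against 4.04% to 7.92% in the other 8 members. The exons of GASA4, GASA9 and GASA14 are shown because these 3 genes had the widest ranges of level across the genotypes. They lie at chr5:4945844-4946025, chr1:8027780-8027961 and chr5:4827577-4827761 on the plus strand of TAIR10.1 (RefSeq), and capitals mark the cysteine codons.
GASA4: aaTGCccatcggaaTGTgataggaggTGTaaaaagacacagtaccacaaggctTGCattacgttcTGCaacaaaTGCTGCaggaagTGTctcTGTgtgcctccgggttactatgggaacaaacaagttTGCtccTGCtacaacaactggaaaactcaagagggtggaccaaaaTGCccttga
GASA9: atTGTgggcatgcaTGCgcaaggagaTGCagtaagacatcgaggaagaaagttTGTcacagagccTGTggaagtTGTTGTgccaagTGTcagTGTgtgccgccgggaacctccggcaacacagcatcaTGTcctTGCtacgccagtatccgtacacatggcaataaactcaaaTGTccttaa
GASA14: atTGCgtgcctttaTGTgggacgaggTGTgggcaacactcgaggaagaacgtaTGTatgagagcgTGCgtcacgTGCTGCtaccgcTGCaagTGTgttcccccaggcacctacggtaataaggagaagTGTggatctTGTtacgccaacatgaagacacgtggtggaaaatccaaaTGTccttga

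Library depth ran from 15651218 to 23098347 counted reads, and 3 reads correspond to 0.130 to 0.192 CPM, the unit of the levels below, which is the read count scaled to the library total and to a trimmed-mean (TMM) factor. CRY2 had 3 and 4 reads in cry1 cry2, against 5006 and 4256 in WT. CRY1 had 1488 and 1376 reads in cry1 cry2, against 4531 and 3865 in WT, and AGB1 averaged 43.8 ± 0.811 CPM in agb1 and 69.7 ± 7.68 CPM in WT (SD, n = 2 each). HY5 averaged 14.4 ± 0.696 CPM in hy5 and 15.4 ± 0.663 CPM in WT, so its reads neither support nor contradict the hy5 label. All 10 markers of green seedlings had reads in every genotype, but their summed level was 55660 and 55190 CPM in agb1, 21620 and 21600 CPM in hy5, 6183 and 5950 CPM in cry1 cry2, and 40780 and 38290 CPM in WT. LHCB1.3 alone averaged 32700 CPM in agb1, 6190 CPM in hy5, 2515 CPM in cry1 cry2 and 21040 CPM in WT. In hy5 LHCB1.3, LHCB2.1, LHCB3, LHCA1 and PSAD1 fell, while RBCS1A, RBCS1B, RBCS2B, RBCS3B and RCA rose. Root markers summed to 3086 and 3065 CPM in agb1, 7043 and 7207 CPM in hy5, 7605 and 7461 CPM in cry1 cry2, and 4473 and 4469 CPM in WT, with NRT2.1 at 0 in agb1 and WT. Most of that sum was 1 gene, PYK10, which averaged 2861 CPM in agb1, 6581 CPM in hy5, 6886 CPM in cry1 cry2 and 4154 CPM in WT, and RHD2, EXPA7, EXPA18, COBL9 and PLT1 fell in hy5. In whole seedlings, fewer cells of a type and less RNA per cell cannot be told apart, and the part of tissue make-up in the results below was not tested.

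Of the 9 members, 6 had enough reads for a test, namely GASA1, GASA4, GASA6, GASA9, GASA10 and GASA14. Per coding length, as the authors' RPKM (reads scaled to model length and library total) of the transcript model with most reads, GASA1 stood at 517 ± 33.6 in WT, GASA4 at 368 ± 0.429, GASA14 at 290.3 ± 5.94 and GASA6 at 215 ± 5.45 (SD, n = 2). GASA9 followed at 13.3 ± 1.67 RPKM and GASA10 at 4.66 ± 0.718 RPKM in WT. The 2 libraries of WT do not overlap between any neighbours in this order. In agb1 GASA1 also had the highest level of the family per length, at 787 and 728 RPKM, and likewise in hy5, at 749 and 726 RPKM. In cry1 cry2 GASA4 took that place, at 1877 and 2091 RPKM, while GASA1 had 385 and 444.5 RPKM. Several loci have models that share their coding bases and split the reads, so RPKM summed over models is higher, at 3907 ± 106 for GASA4 in cry1 cry2 and 739 ± 11.1 in WT. Summed RPKM in WT was 936 ± 43.2 for GASA1, 489 ± 2.66 for GASA14 and 39.2 ± 4.07 for GASA9. GASA6 and GASA10 have 1 model each. The order in WT stayed the same, but the gaps between genes depend on the number of models. The share of GASA4 reads in its first model was 56.9% ± 0.134 in agb1, 57.5% ± 0.431 in hy5, 56.8% ± 2.45 in cry1 cry2 and 55.9% ± 0.679 in WT (SD, n = 2 each).

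**Figure D1:**
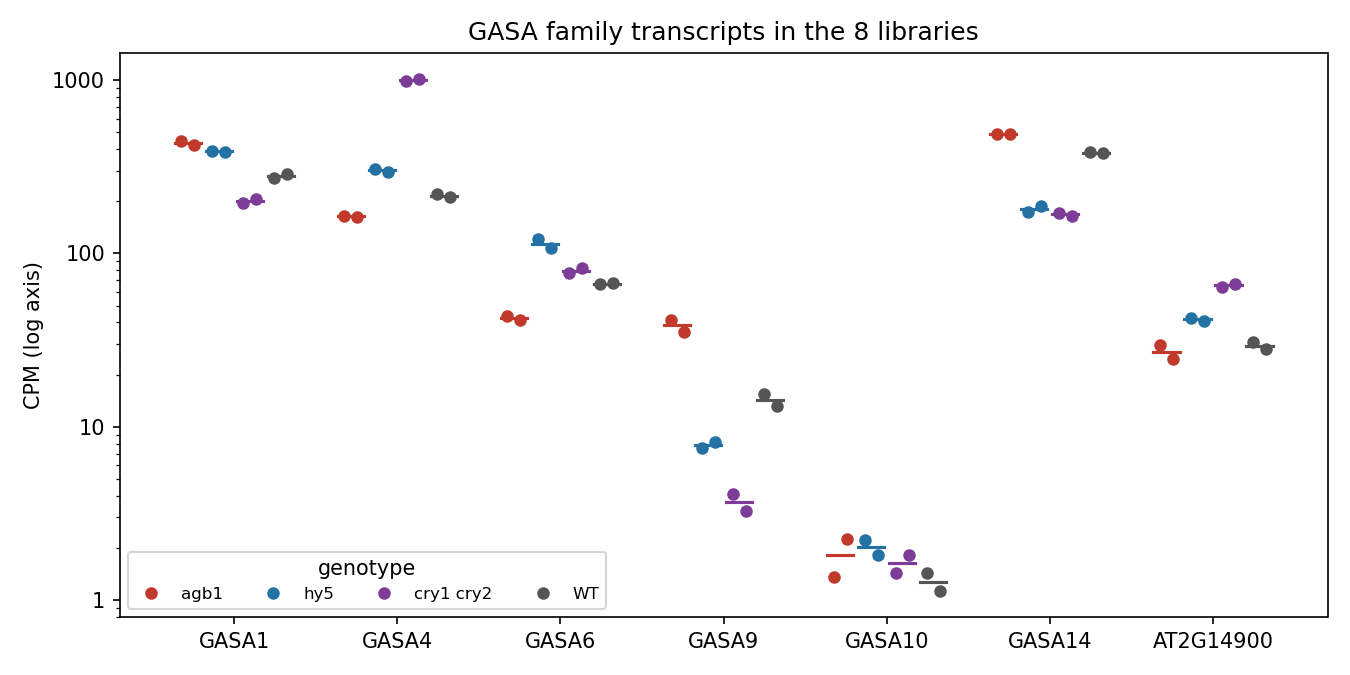
Scaled read count (CPM) of the tested GASA loci on a log axis, with the genotypes of each gene in the order agb1, hy5, cry1 cry2 and WT; each point is 1 library and each bar a mean. GASA4 reached 986 and 1020 CPM in cry1 cry2, and GASA9 41.5 and 35.4 CPM in agb1, above every other genotype.

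GASA4 (chr5:4944816-4946299, plus strand), a promoter of gibberellin responses, had 165 and 163 CPM in agb1, 308 and 297 CPM in hy5, 986 and 1020 CPM in cry1 cry2, and 219 and 210.3 CPM in WT. No genotype's libraries overlapped those of another, and the order from high to low was cry1 cry2, hy5, WT, agb1. The log2 fold change against WT was -0.39 ± 0.05 in agb1 (SE; edgeR quasi-likelihood test, adjusted p = 2.5e-06), 0.49 ± 0.05 in hy5 (adjusted p = 6.68e-09) and 2.22 ± 0.05 in cry1 cry2 (adjusted p = 2.37e-24). The 4.67-fold higher level in cry1 cry2 ranked 139 from the top among 20695 tested loci. Between mutants the log2 fold change was -0.88 ± 0.05 for agb1 over hy5 (adjusted p = 2.25e-14), -2.61 ± 0.06 for agb1 over cry1 cry2 (adjusted p = 6.02e-26) and -1.73 ± 0.05 for hy5 over cry1 cry2 (adjusted p = 1.04e-21).

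GASA6 (chr1:28053030-28054149, plus strand), whose peptide promotes germination, had 43.4 and 41.2 CPM in agb1, 120.4 and 107.5 CPM in hy5, 76.7 and 81.9 CPM in cry1 cry2, and 66.3 and 67.25 CPM in WT. The order was hy5, cry1 cry2, WT, agb1, again with no overlap between genotypes. Against WT it fell by 0.66 ± 0.07 on the log2 scale in agb1 (adjusted p = 1.66e-08). It rose by 0.77 ± 0.06 in hy5 (adjusted p = 1.82e-11) and by 0.25 ± 0.06 in cry1 cry2 (adjusted p = 0.00145). Of the tested members with a 182-base shared exon (GASA1, GASA4, GASA6 and GASA9), GASA6 is the nearest to GASA4 in it, and both were lowest in agb1, but their highest levels were in different genotypes. The log2 fold change of hy5 over cry1 cry2 was 0.52 ± 0.06 for GASA6 (adjusted p = 2.99e-08), opposite in sign to that of GASA4. Within a library, free of scaling, the number of GASA4 reads per GASA6 read was 3.8 and 3.95 in agb1, 2.56 and 2.76 in hy5, 12.9 and 12.4 in cry1 cry2, and 3.3 and 3.13 in WT. The gene overlaps AT1G74675 on the other strand by 206 bases, and that locus had 1 to 18 reads a library.

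GASA1 (chr1:28441501-28442435, minus strand) had 444 and 420.3 CPM in agb1, 390.1 and 386 CPM in hy5, 195 and 207 CPM in cry1 cry2, and 273.5 and 286 CPM in WT. It was higher than WT in agb1 and hy5 and lower in cry1 cry2. The log2 fold change against WT was 0.63 ± 0.05 in agb1 (adjusted p = 3.55e-10), 0.47 ± 0.05 in hy5 (adjusted p = 2.32e-08) and -0.48 ± 0.05 in cry1 cry2 (adjusted p = 1.25e-08). The neighbours in this order, agb1 and hy5, differed by 0.16 ± 0.05 (adjusted p = 0.016). That call was lost when library sizes alone were used (log2 fold change 0.085, adjusted p = 0.19) and with the model with most reads in place of the sum (0.12, adjusted p = 0.128). It was also lost on leaving out agb1 replicate 1 (0.12, adjusted p = 0.171) or hy5 replicate 2 (0.15, adjusted p = 0.0601). The level was 2.15-fold higher in agb1 than in cry1 cry2 (log2 1.11 ± 0.06, adjusted p = 6.74e-17).

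GASA14 (chr5:4826141-4828384, plus strand), the proline-rich member linked to leaf expansion, had 489 and 487.5 CPM in agb1, 173 and 188 CPM in hy5, 170.4 and 165 CPM in cry1 cry2, and 383 and 379 CPM in WT. Levels were highest in agb1, followed by WT, with hy5 and cry1 cry2 far below. The log2 fold change against WT was 0.36 ± 0.05 in agb1 (adjusted p = 7.29e-06), -1.08 ± 0.05 in hy5 (adjusted p = 7.34e-16) and -1.18 ± 0.05 in cry1 cry2 (adjusted p = 1.63e-17). The difference between hy5 and cry1 cry2 was not called (0.11 ± 0.05, adjusted p = 0.124). It passed the threshold without hy5 replicate 1 (0.16, adjusted p = 0.0413) and turned to -0.07 with library sizes alone (adjusted p = 0.274), so the order of these 2 genotypes was not resolved.

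GASA9 (chr1:8027126-8028168, plus strand) had 41.5 and 35.4 CPM in agb1, 7.56 and 8.15 CPM in hy5, 4.10 and 3.29 CPM in cry1 cry2, and 15.55 and 13.1 CPM in WT. It ran in the order agb1, WT, hy5, cry1 cry2, with every pair apart. The log2 fold change against WT was 1.42 ± 0.10 in agb1 (adjusted p = 3.63e-12), rank 124 from the top of 20695 loci. It was -0.87 ± 0.12 in hy5 (adjusted p = 1.14e-06) and -1.96 ± 0.14 in cry1 cry2 (adjusted p = 1.23e-12). The widest gap of any member between genotypes was here: GASA9 was 10.4-fold higher in agb1 than in cry1 cry2 (log2 3.38 ± 0.13, adjusted p = 9.61e-20). It also differed between hy5 and cry1 cry2 (1.09 ± 0.16, adjusted p = 2.57e-06). The annotated gene shares 11 bases with AT1G22700 on the other strand, which had 1065 and 831 reads in agb1, 591 and 596 in hy5, 505 and 492 in cry1 cry2, and 1004 and 919 in WT. No other gene lies in the 250 bases before the start of GASA9, and its last coding exon ends at 8027961. The shared bases therefore lie past its coding sequence, and the length behind the deposited RPKM was the coding length. Whether counting used strand is not stated in the labels or headers, and a part of those bases in the GASA9 counts was not tested.

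GASA10 (chr5:24111304-24112100, plus strand) was near the limit of detection in every genotype, with 22 to 38 reads a library. It had 1.35 and 2.265 CPM in agb1, 2.23 and 1.82 CPM in hy5, 1.44 and 1.81 CPM in cry1 cry2, and 1.43 and 1.12 CPM in WT. No difference was called: the log2 fold change against WT was 0.46 ± 0.32 in agb1 (adjusted p = 0.38), 0.65 ± 0.30 in hy5 (adjusted p = 0.0835) and 0.34 ± 0.31 in cry1 cry2 (adjusted p = 0.39). With standard errors of that size, changes near 0.6 on the log2 scale were not detectable at this depth.

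**Figure D2:**
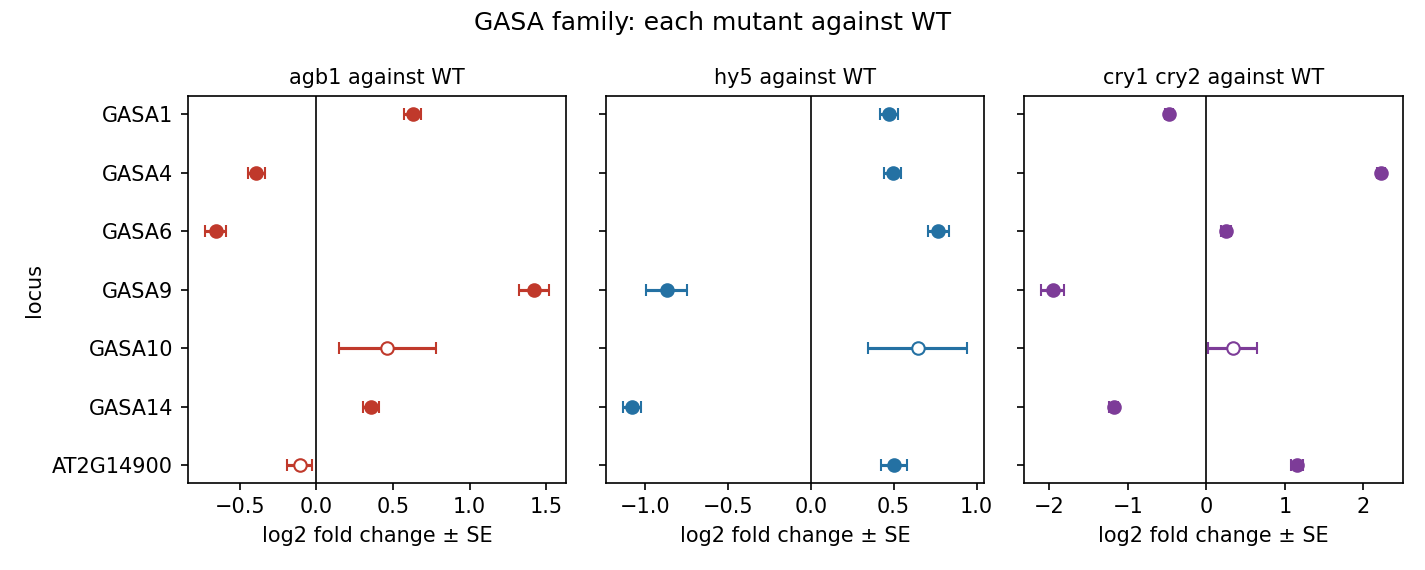
Log2 fold change of each tested GASA locus in agb1, hy5 and cry1 cry2, each over WT, with standard errors; filled symbols passed an adjusted p of 0.05, open symbols did not, and each panel has its own scale. GASA4 lies at -0.39 in agb1 and 2.22 in cry1 cry2, while GASA9 lies at 1.42 in agb1 and -1.96 in cry1 cry2.

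In agb1 against WT, 5 of the 6 tested members were called, 3 higher (GASA1, GASA9, GASA14) and 2 lower (GASA4, GASA6), where 17.2% of all tested loci were called, 8.76% higher and 8.41% lower. The median log2 fold change of the 6 was 0.41, beside -0.003 for all loci. That median lies between GASA14 (0.36 ± 0.05) and GASA10 (0.46 ± 0.32), and GASA10 was not called. The count of loci called in agb1 was the least stable of the comparisons: it was 3553, against 2351 without WT replicate 2 and 2059 with DESeq2, while the 5 member calls stood in every setting. Green seedling markers were higher in agb1 for 8 of 10 genes, and root markers lower for 8 of 14 tested and higher for 1, PLT2. Their part in the member values was not tested.

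In hy5 against WT, 5 of the 6 were again called, 3 higher (GASA1, GASA4, GASA6) and 2 lower (GASA9, GASA14). Of all loci 42.9% were called in that comparison, 22.6% higher and 20.2% lower. The median of the 6 was 0.48, beside -0.001 for all loci. All comparisons with WT use the same WT libraries, so mutants are set against each other directly further on. Root markers were higher in hy5 for 8 of 14 genes and lower for 5, and green seedling markers were split at 5 of 10 each.

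In cry1 cry2 against WT, 5 of the 6 members were called, 2 higher (GASA4, GASA6) and 3 lower (GASA1, GASA9, GASA14), with 51.4% of all loci called, 25.6% higher and 25.8% lower. The median of the 6 was -0.11, beside 0.001 for all loci. GASA4 and GASA9 had the larger changes, at 2.22 and -1.96. All 10 green seedling markers were lower in cry1 cry2, 7 of 14 root markers were higher, and 14 of 15 tested seed markers were higher. Several of these seed markers had enough reads for a test through cry1 cry2 alone, so that count was partly set by the filter. CRU2 averaged 4.04 CPM in cry1 cry2 and 0.0479 CPM in WT, and SESA3 averaged 5.37 and 0.192 CPM. The part of the marker sets in the member values was not tested. With library sizes alone the median of all loci shifted by 0.18 in this comparison, and the share of called loci that were higher was 70.7% in place of 49.8%. All 5 member calls kept their direction there.

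**Figure D3:**
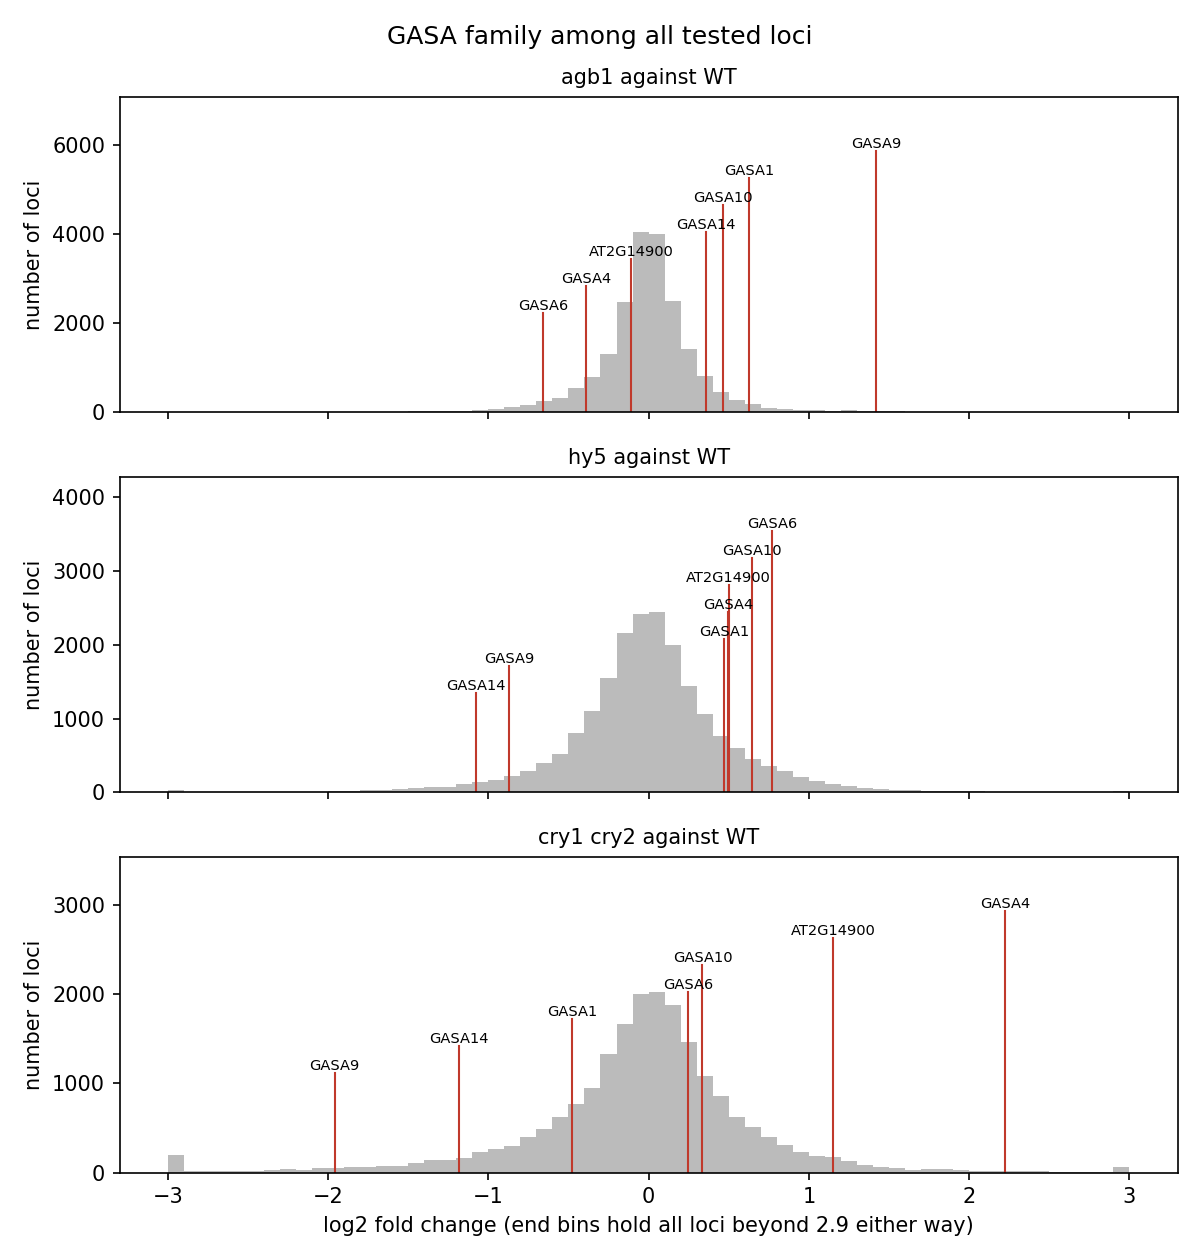
Number of tested loci by log2 fold change over WT (grey, bins 0.1 wide) in agb1, hy5 and cry1 cry2, with the tested GASA loci marked by lines whose heights have no meaning. GASA9 in agb1 and GASA4 in cry1 cry2 stand in the upper tails, at ranks 124 and 139 of 20695 loci.

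Comparing the mutants with each other, agb1 against hy5 gave 5 called members of 6, 3 higher in agb1 (GASA1, GASA9, GASA14) and 2 lower (GASA4, GASA6), with 49.9% of all loci called, 24.2% higher and 25.7% lower. GASA9 differed by 2.29 ± 0.11 (adjusted p = 1.01e-16), GASA14 by 1.44 ± 0.05 (adjusted p = 4.32e-19) and GASA6 by -1.43 ± 0.07 (adjusted p = 4.33e-17). In agb1 against cry1 cry2, 5 members were called, GASA1, GASA9 and GASA14 higher in agb1 and GASA4 and GASA6 lower, where 57.9% of all loci were called, 28.8% higher and 29.1% lower. GASA14 differed there by 1.54 ± 0.06 (adjusted p = 2.04e-20) and GASA6 by -0.91 ± 0.07 (adjusted p = 1.22e-12). In hy5 against cry1 cry2, 4 of 6 were called, GASA1, GASA6 and GASA9 higher in hy5 and GASA4 lower, with 43.7% of all loci called, 23.2% higher and 20.6% lower. GASA1 differed by 0.95 ± 0.06 (adjusted p = 4.48e-15). These 3 comparisons share libraries with one another and with those against WT.

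**Figure D4:**
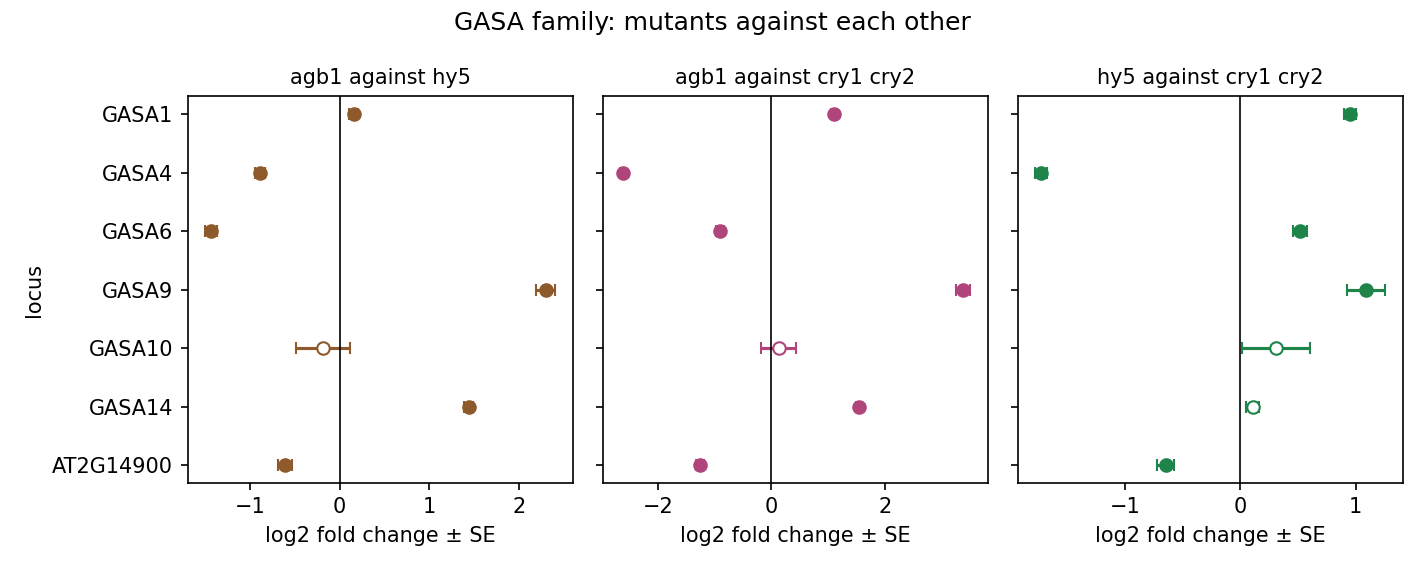
Log2 fold change of each tested GASA locus between mutants (agb1 over hy5, agb1 over cry1 cry2, hy5 over cry1 cry2), with standard errors; filled symbols passed an adjusted p of 0.05, and each panel has its own scale. GASA9 reaches 3.38 and GASA4 -2.61 in agb1 over cry1 cry2, while GASA14 in hy5 over cry1 cry2 is open, at 0.11.

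The summed level of the 9 members was 1185 and 1150 CPM in agb1, 1002 and 988 CPM in hy5, 1434 and 1481 CPM in cry1 cry2, and 959 and 957 CPM in WT. No library of a mutant was at or below a WT library, and cry1 cry2 was highest. What made up the sum differed more than its size. GASA4 held 13.9% and 14.2% of it in agb1, 30.7% and 30.0% in hy5, 68.7% and 68.9% in cry1 cry2, and 22.8% and 22.0% in WT. GASA14 held 41.3% and 42.4% in agb1, 17.3% and 19.0% in hy5, 11.9% and 11.2% in cry1 cry2, and 39.9% and 39.6% in WT. Within a library the number of GASA4 reads per GASA14 read was 0.337 and 0.334 in agb1, 1.78 and 1.58 in hy5, 5.79 and 6.18 in cry1 cry2, and 0.572 and 0.555 in WT. This pair was chosen after its values were seen. In all, the 9 loci took 0.0929% to 0.165% of the reads of a library.

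**Figure D5:**
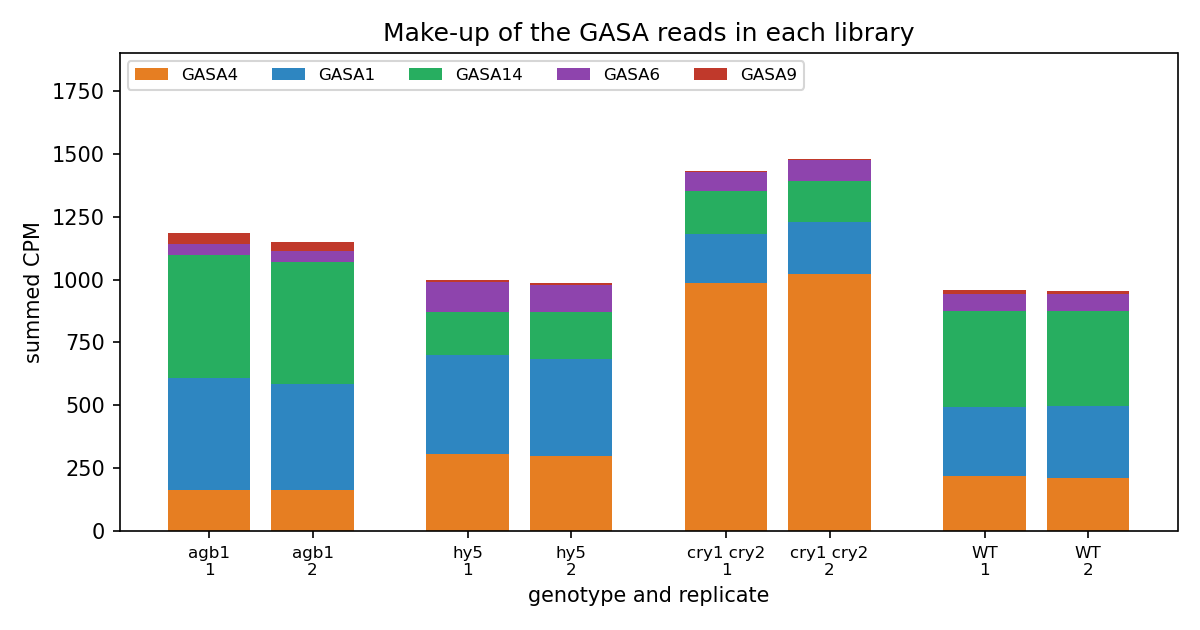
CPM of the 5 GASA members with most reads in each library, stacked by gene, in the order agb1, hy5, cry1 cry2 and WT. GASA4 holds 68.7% and 68.9% of the summed level of all 9 members in cry1 cry2 and 22.8% and 22.0% in WT.

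The other 3 members had too few reads for the test. GASA3 had 2 and 2 reads in agb1, 1 and 4 in hy5, 8 and 16 in cry1 cry2, and 2 and 2 in WT. Its rate in cry1 cry2 was 7.99 times that in WT, with an exact 95% interval of 2.75 to 31.7 that covers counting error only. Without the filter on low counts, edgeR gave a log2 fold change of 2.73 ± 0.85 (adjusted p = 0.00402). The summed level of the 16 seed markers was 12.6 and 11.3 CPM in agb1 (CRU2, SESA1 and SESA3 at 0), 19.1 and 22.2 CPM in hy5 (CRU2 and SESA4 at 0), 88.2 and 114 CPM in cry1 cry2, and 17.25 and 19.1 CPM in WT. Their part in the GASA3 reads was not tested. GASA2 had 1 read in all 8 libraries, in cry1 cry2. It lies 1123 bases from GASA3 on chromosome 4, and how reads that match both were placed is not given. GASA5, a repressor of flowering, had 4 and 4 reads in agb1, 7 and 5 in hy5, 7 and 8 in cry1 cry2, and 8 and 15 in WT.

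Of the 6 further family loci, AT2G14900 alone passed the filter. It had 29.7 and 24.5 CPM in agb1, 42.7 and 40.6 CPM in hy5, 64.2 and 66.4 CPM in cry1 cry2, and 30.65 and 28.1 CPM in WT. It rose by 0.50 ± 0.08 on the log2 scale in hy5 (adjusted p = 4.98e-06) and by 1.15 ± 0.07 in cry1 cry2 (adjusted p = 5.56e-14), and the agb1 libraries overlapped those of WT (-0.11 ± 0.08, adjusted p = 0.443). Over the 8 libraries its log2 level ran with that of GASA4 (Pearson r = 0.971), a description over points that share 4 genotypes. AT2G18420 had 5 reads in all and AT3G10185 had 4, all of them in hy5. AT2G39540, AT2G30810 and AT1G10588 had 0 reads in every library, which allows a level of up to 0.130 to 0.192 CPM.

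The loci most like the 3 members with the widest range were found by Pearson correlation of log2 CPM over the 8 libraries among 15406 loci. For GASA4 they were AT2G41190, an amino acid transporter (r = 0.9989), MDP40 (0.9972) and AT1G07985 (0.9968). AT1G07985 averaged 2.79 CPM in agb1, 7.01 in hy5, 41.6 in cry1 cry2 and 4.76 in WT. For GASA9 they were AT3G16670, of the Pollen Ole e 1 and extensin family (r = 0.9970), PDE340 (0.9967) and the cytochrome P450 gene CYP78A5 (0.9936). AT3G16670 averaged 26.4 CPM in agb1, 0.589 in hy5, 0.0277 in cry1 cry2 and 3.25 in WT; the cry1 cry2 level is under that of 3 reads. For GASA14 they were the transcription factor gene TCP2 (r = 0.9987), AT5G02540 (0.9977) and the glutathione peroxidase gene GPX6 (0.9975). These points share libraries and 4 genotypes, and the values are a description.

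Genes that make, inactivate and sense gibberellin were counted beside the peptides. Of 14 synthesis genes 9 were tested. In agb1 edgeR called 0 of them, with 3 at an unadjusted p under 0.05 and 0 called by DESeq2. Of all loci edgeR called 17.2% there. In hy5 edgeR called 2 higher and 4 lower and DESeq2 called 5, where edgeR called 42.9% of all loci. In cry1 cry2 edgeR called 2 higher and 4 lower and DESeq2 called 3, where edgeR called 51.4% of all loci. GA20OX1, an oxidase late in synthesis, averaged 4.64 CPM in hy5 and 1.65 CPM in WT, a log2 difference of 1.49 ± 0.21 (adjusted p = 1.15e-06). In cry1 cry2 it averaged 11.1 CPM (2.75 ± 0.18, adjusted p = 9.65e-14). GA3OX1, which forms the bioactive hormone, averaged 12.3 CPM in cry1 cry2 and 2.17 CPM in WT (2.49 ± 0.17, adjusted p = 1.87e-13), and it was not called in hy5 (-0.24 ± 0.24, adjusted p = 0.441). GA3, the ent-kaurene oxidase gene, averaged 24.8 CPM in hy5 and 35.1 CPM in WT (-0.51 ± 0.08, adjusted p = 4.37e-06). Also lower in hy5 were KAO2, GA3OX2 and GA20OX2, the last by 0.65 ± 0.14 (adjusted p = 0.000467). GA3OX2 averaged 0.084 CPM in hy5, under the level of 3 reads. Besides GA20OX1, GA1 was called higher in hy5 (0.94 ± 0.30, adjusted p = 0.0114). The 4 lower in cry1 cry2 were KAO2, KAO1, GA3 and GA3OX2. GA3OX2 averaged 0.310 CPM in cry1 cry2 and 0.983 CPM in WT (-1.70 ± 0.59, adjusted p = 0.0165), opposite in direction to GA3OX1.

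Of 7 inactivating GA 2-oxidase genes 5 were tested. In agb1 1 rose, GA2OX4, at 2.88 CPM against 1.48 CPM in WT (0.96 ± 0.26, adjusted p = 0.00902), and DESeq2 called 0 of the 5. Of all loci edgeR called 17.2% there, 8.76% higher and 8.41% lower. In hy5 GA2OX6 rose and GA2OX1 fell, and DESeq2 called 1 of the 5, where edgeR called 42.9% of all loci. In cry1 cry2 2 rose, a count that DESeq2 gave too, where edgeR called 51.4% of all loci, 25.6% higher and 25.8% lower. They were GA2OX6 at 24.9 CPM against 9.42 CPM in WT (1.40 ± 0.10, adjusted p = 5.24e-13), and GA2OX8 at 1.87 CPM against 0.731 CPM in WT (1.34 ± 0.35, adjusted p = 0.00179). All 13 receptor and DELLA-related genes were tested. In agb1 GID1A, a receptor, was the 1 called by edgeR (0.24 ± 0.07, adjusted p = 0.0205), and DESeq2 called 0, where edgeR called 17.2% of all loci. In hy5 5 of the 13 rose and 0 fell by edgeR, and DESeq2 called 3. The share called by edgeR was no higher than the 42.9% of all loci called there in either direction. It was above the 22.6% of all loci called higher. Among the 5 were the DELLA genes RGL1 (1.27 ± 0.09, adjusted p = 1.15e-12) and RGA (0.27 ± 0.06, adjusted p = 0.000205). In cry1 cry2 4 rose and 1 fell by edgeR and DESeq2 called 4. The share called by edgeR in either direction was again no higher than the 51.4% of all loci, 25.6% higher and 25.8% lower. RGL1 was at 40.8 CPM against 11.2 CPM in WT (1.85 ± 0.08, adjusted p = 1.45e-17) and SCL3 rose by 0.61 ± 0.08 (adjusted p = 1.7e-07).

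EXPA1, the expansin gene placed downstream of GASA6 in germinating Arabidopsis, averaged 75.0 CPM in agb1, 289.5 CPM in hy5, 68.4 CPM in cry1 cry2 and 107 CPM in WT. It fell in agb1 (-0.52 ± 0.06, adjusted p = 3.75e-07) and rose in hy5 (1.43 ± 0.06, adjusted p = 1.02e-17), the directions of GASA6. In cry1 cry2 it fell (-0.65 ± 0.06, adjusted p = 5.27e-10) while GASA6 rose by 0.25. FLC, the flowering repressor gene linked to GASA5, averaged 24.6 CPM in hy5 and 7.74 CPM in WT (1.67 ± 0.11, adjusted p = 3.26e-13), and it was not called in agb1 (-0.26 ± 0.14, adjusted p = 0.252) or cry1 cry2 (0.02 ± 0.13, adjusted p = 0.922).

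The 250 bases before the annotated start of each gene were searched on both strands for 4 motifs: the G-box CACGTG, its ACGT core, the gibberellin-responsive element TAACAAA and the E-box CATGTG bound by PIF factors. CACGTG was in 0 of the 9 members and in 6.48% of 27413 windows of the same length. ACGT was in 6 of 9 (44.1% of all windows), TAACAAA in 1 of 9 (16.1%) and CATGTG in 4 of 9 (11.1%). A match to CACGTG would also be counted as ACGT. The window of GASA1 held no match to any of the 4 motifs. Windows of 4 members are printed because each had the largest called rise or fall of a member against WT in some genotype. Capitals in these windows mark every match. They are chr5:4944566-4944815, chr1:28052780-28053029, chr1:8026876-8027125 and chr5:4825891-4826140, all on the plus strand of TAIR10.1.
GASA4: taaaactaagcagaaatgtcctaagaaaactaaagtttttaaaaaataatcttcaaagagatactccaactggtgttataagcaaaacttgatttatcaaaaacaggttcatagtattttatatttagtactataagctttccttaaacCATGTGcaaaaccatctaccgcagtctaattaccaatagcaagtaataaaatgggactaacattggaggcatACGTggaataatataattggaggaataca
GASA6: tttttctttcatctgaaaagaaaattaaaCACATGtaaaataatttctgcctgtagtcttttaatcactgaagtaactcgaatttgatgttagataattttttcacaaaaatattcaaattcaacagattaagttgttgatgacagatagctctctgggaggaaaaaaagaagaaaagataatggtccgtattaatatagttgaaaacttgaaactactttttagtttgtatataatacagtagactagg
GASA9: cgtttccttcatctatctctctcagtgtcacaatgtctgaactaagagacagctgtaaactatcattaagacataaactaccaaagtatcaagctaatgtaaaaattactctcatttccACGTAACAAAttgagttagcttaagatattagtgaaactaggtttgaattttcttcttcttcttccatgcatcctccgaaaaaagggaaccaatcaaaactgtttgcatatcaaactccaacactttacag
GASA14: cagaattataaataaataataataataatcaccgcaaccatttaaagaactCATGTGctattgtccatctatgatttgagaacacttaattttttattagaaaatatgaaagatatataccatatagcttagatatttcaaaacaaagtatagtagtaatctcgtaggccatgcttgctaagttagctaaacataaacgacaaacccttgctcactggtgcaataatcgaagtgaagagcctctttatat
In GASA4 the capitals are CATGTG and ACGT, in GASA6 the reverse complement of CATGTG, and in GASA14 CATGTG. In GASA9 ACGT and TAACAAA overlap and stand as 1 run. GASA4 and GASA14 both hold CATGTG, and GASA4 rose in cry1 cry2 while GASA14 fell. A match shows only that the letters are there.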

How the data were processed

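RNA-seq tables of 8 libraries were used, 2 a genotype. Per the file headers, the authors deposited raw read counts and RPKM for 48321 transcript models. The submitters' processing notes name Bowtie2 2.2.2 and TAIR10, and no source used here gives the counting tool or strand. The length implied by the deposited RPKM was the TAIR10.1 coding length less 0 to 3 bases. Counts were summed over the models of each locus. In 1241 loci with 2 models of the same coding segments, reads split evenly with chi-square 1.01 per degree of freedom, as when each read goes to 1 model. RPKM served only to compare genes.

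Of 24741 loci with a read, 20695 passed filterByExpr at a minimum count of 10 and a minimum total of 15. All 8 libraries entered 1 edgeR 4.0.16 quasi-likelihood fit (R 4.3.3, TMM factors 0.931 to 1.12, 4 residual degrees of freedom), with Benjamini-Hochberg adjustment in each comparison and calls at 0.05. Standard errors are the absolute log2 fold change over the square root of F. These and the p values rest on a spread moderated over all tested loci, not on the 4 residual degrees of freedom alone. The procedure was tested on simulated data. No libraries were duplicates (chi-square per degree of freedom 2.34 to 3.44 between replicates). Alternatives covered 16 settings, among them DESeq2 1.42.0.

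Members and gene lists were chosen with earlier results of these data known. Named genes were all family loci, the targeted genes, up to 2 called genes with the lowest p per list and comparison with WT, and 3 loci most like each of the 3 members of widest range (mean of at least 5 CPM). Values of a named gene in a further comparison, and further genes of the gibberellin and marker lists, were added after the values were seen.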

Additional observations from a re-analysis of the deposited data

How the results depend on the processing

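Of 426 values of the tested members under alternatives, 416 kept their direction and side of the threshold. The count of members called did not move in 4 of the 6 comparisons. In agb1 against hy5 it was 4 in place of 5 with library sizes alone, with the model with most reads, without agb1 replicate 1 and without hy5 replicate 2, where GASA1 lost its call. In hy5 against cry1 cry2 it was 5 in place of 4 without hy5 replicate 1, where GASA14 gained one. The count of loci called in agb1 against WT was 3553, against 2059 with DESeq2 and 2351 to 2477 when a library was left out. Sign changes touched values that were not called. For AT2G14900 in agb1 against WT the values ran from -0.264 to 0.015 as libraries were left out. For GASA10, agb1 over hy5 ran from -0.570 to 0.170 and agb1 over cry1 cry2 from -0.260 to 0.479 (-0.023 without cry1 cry2 replicate 1), and the second was -0.120 with library sizes alone. For GASA14, hy5 over cry1 cry2 was -0.069 with library sizes alone. The cause was not tested.

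Library sizes alone moved the median of all loci by 0.18 in cry1 cry2 against WT, -0.25 in agb1 over cry1 cry2 and -0.17 in hy5 over cry1 cry2. The share of calls that were higher was then 31.4% in place of 51% in agb1 against WT, 38.4% in place of 48.5% in agb1 over hy5, 27.5% in place of 49.7% in agb1 over cry1 cry2 and 28.2% in place of 53% in hy5 over cry1 cry2.

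The replicate numbers shared by the genotypes did not pair the libraries (correlation of replicate differences -0.039 to 0.060). With the replicate number as a block, 5 members were called in agb1 against WT and 3476 loci. Depth limits GASA2, GASA3, GASA5 and GASA10.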
